A study of Homo sapiens with 15 samples.

Results

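The aminoacyl-tRNA synthetase genes, which load amino acids onto tRNAs in the cytosol and in mitochondria, were described in 293T cells under serum starvation and SRSF1 knockdown. Members were rows whose name is a letter followed by ARS and, in some cases, 1, 2 or 3, together with FARSA, FARSB and EPRS1. This name rule used no measured value and found 38 of the 19966 genes in the table. Of these, 20 encode cytosolic enzymes, 17 end in 2 and encode mitochondrial enzymes, and TARS3, formerly TARSL2, is a cytosolic paralogue of TARS1 counted apart.

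293T cells descend from human embryonic kidney and express the large T antigen of SV40. The labels give fed and starved cells as wild type and the third group by its SRSF1 knockdown. Cells were grown in DMEM with 10% fetal serum. Fed cells had 0 h without serum, starved cells spent 12 h without serum, and knockdown cells spent the same 12 h without serum and carried a short hairpin RNA against the splicing factor SRSF1. Each of these 3 groups has 3 libraries. The series also has SRPK1 and UPF1 knockdowns, not analysed here. No library with a control hairpin entered these comparisons, so an effect of losing SRSF1 cannot be told apart from an effect of carrying a hairpin.

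A synthetase first activates its amino acid with ATP and then transfers it to the matching tRNA. Class I and class II enzymes have unrelated folds, and most amino acids have separate nuclear genes for the cytosolic and the mitochondrial enzyme. In mammals several cytosolic enzymes sit in a multi-synthetase complex held together by scaffold proteins, and when amino acids run short the kinase GCN2 acts through the transcription factor ATF4, which is known to induce many cytosolic synthetase genes but few mitochondrial ones. GARS1 and KARS1 each give both the cytosolic and the mitochondrial enzyme from 1 gene. QARS1 has no mitochondrial partner gene, because mitochondrial glutaminyl-tRNA is made by way of EARS2 and the GatCAB amidotransferase.

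ATF4 with its C/EBP partners binds elements whose core reads TGATGNAA. This word, searched on both strands in RefSeq promoter windows (GRCh38.p14, 250 bases before to 50 after the start), was found in 1217 of 27305 genes (4.46%). Windows were at hand for 30 of the 38 members. The word stood in 7 of 16 cytosolic genes (43.8%), namely AARS1, CARS1, GARS1, IARS1, MARS1, NARS1 and TARS1, and in 1 of 14 mitochondrial genes (7.14%), YARS2. The narrower word TGATGCAA stood in 1.08% of all genes, in 6 of 16 cytosolic members (37.5%) and in 0 of 14 mitochondrial members. A match is a run of letters and not a measured binding site. The 5 windows below are shown because their genes share the word and yet did not change alike in these cells. On starvation AARS1 and MARS1 were lower and TARS1 and CARS1 higher, while NARS1 was lower only in knockdown cells. CARS1 and TARS1 each also have a window at another start, which does not hold the word. Capitals mark the match. In all but NARS1 the word lies on the opposite strand, so the capitals are its reverse complement.

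AARS1, chr16:70289457-70289756, minus strand: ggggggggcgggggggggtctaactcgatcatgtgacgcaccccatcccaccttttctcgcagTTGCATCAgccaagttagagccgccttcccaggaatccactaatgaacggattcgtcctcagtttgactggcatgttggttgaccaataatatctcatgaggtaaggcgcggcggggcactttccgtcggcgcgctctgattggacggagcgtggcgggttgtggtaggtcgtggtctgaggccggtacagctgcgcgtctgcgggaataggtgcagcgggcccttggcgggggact
MARS1, chr12:57487818-57488117, plus strand: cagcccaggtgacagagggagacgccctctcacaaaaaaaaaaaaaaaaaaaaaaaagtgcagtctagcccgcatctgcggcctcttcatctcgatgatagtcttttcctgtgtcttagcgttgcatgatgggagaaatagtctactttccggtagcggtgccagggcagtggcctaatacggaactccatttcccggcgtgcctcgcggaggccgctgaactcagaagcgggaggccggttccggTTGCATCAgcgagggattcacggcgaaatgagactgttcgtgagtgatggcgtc
TARS1, chr5:33440715-33441014, plus strand: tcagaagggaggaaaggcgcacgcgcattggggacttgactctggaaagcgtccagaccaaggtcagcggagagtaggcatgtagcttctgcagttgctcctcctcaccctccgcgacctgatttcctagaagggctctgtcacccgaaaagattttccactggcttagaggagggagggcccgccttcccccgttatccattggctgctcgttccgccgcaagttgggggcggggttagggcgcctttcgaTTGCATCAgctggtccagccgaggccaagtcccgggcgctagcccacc
CARS1, chr11:3057374-3057673, minus strand: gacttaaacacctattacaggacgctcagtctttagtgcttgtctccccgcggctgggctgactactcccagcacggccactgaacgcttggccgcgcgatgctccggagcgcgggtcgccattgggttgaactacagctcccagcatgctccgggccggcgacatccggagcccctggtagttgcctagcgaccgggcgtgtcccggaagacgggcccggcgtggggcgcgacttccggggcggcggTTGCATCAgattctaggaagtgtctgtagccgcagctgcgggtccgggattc
NARS1, chr18:57621787-57622086, minus strand: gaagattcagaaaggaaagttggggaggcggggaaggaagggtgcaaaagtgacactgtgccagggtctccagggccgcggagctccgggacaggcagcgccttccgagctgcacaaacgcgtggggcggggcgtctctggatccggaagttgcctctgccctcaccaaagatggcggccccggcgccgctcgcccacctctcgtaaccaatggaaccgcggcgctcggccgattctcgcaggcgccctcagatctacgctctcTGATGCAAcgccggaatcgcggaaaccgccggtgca

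The match began 187 bases before the start in AARS1 and 4 and 2 bases before it in MARS1 and CARS1. In TARS1 and NARS1 it began at bases 2 and 14 counted from the start. The HARS1 and HARS2 genes, which encode the cytosolic and mitochondrial histidyl-tRNA synthetases, point away from each other and their windows share 184 bases. That window is shown because the pair is compared below, with the shared bases in capitals.

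HARS2, chr5:140691205-140691504, plus strand: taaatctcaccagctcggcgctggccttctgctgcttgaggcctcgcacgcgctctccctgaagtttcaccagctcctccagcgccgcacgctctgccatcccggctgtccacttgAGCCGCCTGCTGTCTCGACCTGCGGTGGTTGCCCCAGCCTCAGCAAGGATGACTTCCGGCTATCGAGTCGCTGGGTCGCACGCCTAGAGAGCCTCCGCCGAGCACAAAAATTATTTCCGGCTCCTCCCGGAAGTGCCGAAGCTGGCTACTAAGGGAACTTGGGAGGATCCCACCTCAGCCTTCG

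Libraries with recovered reads held 11775367 to 15231651 reads in genes. Mitochondrially encoded RNA took 3.27% to 5.56% of normalized counts and was highest in knockdown replicate 3. SRSF1 itself (chromosome 17, 58000919 to 58007346) stood at 34.3, 32.8 and 31.7 FPKM in the fed libraries, 42.1, 37.8 and 40.04 in the starved libraries and 31.2, 31.5 and 30.4 in the knockdown libraries. Its knockdown libraries lay below all starved libraries (-0.35 ± 0.07 on the log2 scale, limma adjusted p = 0.00343), and against fed cells the difference was -0.08 ± 0.07 (limma adjusted p = 0.455). Of 11 marker genes of blood, fibroblast, endothelial and keratinocyte cells, CD3E and CD68 were at 0 in every library and the others except COL1A1 reached at most 63.0 normalized counts. COL1A1 ranged from 192 to 451. Among genes that 293T cells are known to express, VIM ranged from 1658 to 4271, CDH2 from 634 to 1024, NEFM from 1044 to 2094 and the kidney factor PAX2 from 9.30 to 64.9 normalized counts over the libraries. PAX2 was thus no higher than some markers of other cell types and stayed under 1 FPKM in every library. Its mean was 59.6 in fed, 14.1 in starved and 61.8 normalized counts in knockdown cells. The summed level of the 11 markers was 446 to 465 in fed, 221 to 260 in starved and 408 to 529 normalized counts in knockdown libraries. Most of that sum was COL1A1 alone, at 446, 411 and 451 in fed, 192, 225 and 241 in starved and 411, 386 and 409 in knockdown libraries. The other fibroblast genes, COL1A2 and DCN, reached at most 0.885 and 4.81. The part of the markers in the results was not tested. In bulk RNA, fewer cells of a kind and less RNA per cell cannot be told apart.

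Levels are given as FPKM, reads per kilobase of gene length scaled to a fixed library sum, computed here from the deposited normalized counts. In fed cells the median over cytosolic members was 48.4 FPKM, over mitochondrial members 11.6 FPKM and over all genes tested 7.51 FPKM. EPRS1, the enzyme that charges both glutamate and proline tRNAs, stood highest at 98.4 ± 5.02 FPKM (SD, n = 3). IARS2, the mitochondrial isoleucyl-tRNA synthetase, came next at 87.8 ± 4.09 FPKM, followed by TARS1 at 85.5 ± 3.88, FARSA at 84.3 ± 5.84 and SARS1 at 82.8 ± 2.11 FPKM. The spreads of IARS2, TARS1, FARSA and SARS1 overlapped, so these neighbours had no clear order.

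At the low end of the cytosolic members were CARS1 at 6.17 ± 0.359 and HARS1 at 8.46 ± 0.324 FPKM, both divided by long gene lengths in the table (10037 and 14155 bases). The lengths of IARS1, LARS1 and GARS1 were longer still (22418, 20639 and 17366 bases), so the order of levels between genes depends on them. FARS2, for mitochondrial phenylalanine, was the lowest tested mitochondrial member at 3.59 ± 0.216 FPKM. SARS2 at 0.625 ± 0.236 and VARS2 at 0.149 ± 0.113 FPKM did not reach 1 FPKM in any library and were not tested. SARS2 shares 15360 bases on its own strand with another gene of the table, so its level is uncertain. In all, 13 members overlap another gene of the table, among them AARS2 (all its 14617 bases with an opposite-strand gene that the table does not name) and EARS2 (1242 bases with GGA2), and reads there may be shared. The filter of 1 FPKM in at least 3 libraries passed 36 members: all 20 cytosolic genes, 15 of 17 mitochondrial genes and TARS3. Replicate spread was smaller in fed cells, with a median coefficient of variation of 3.92% over cytosolic and 4.24% over mitochondrial members, than in starved cells (8.10% and 8.73%) or knockdown cells (8.51% and 8.43%).

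**Figure D1:**
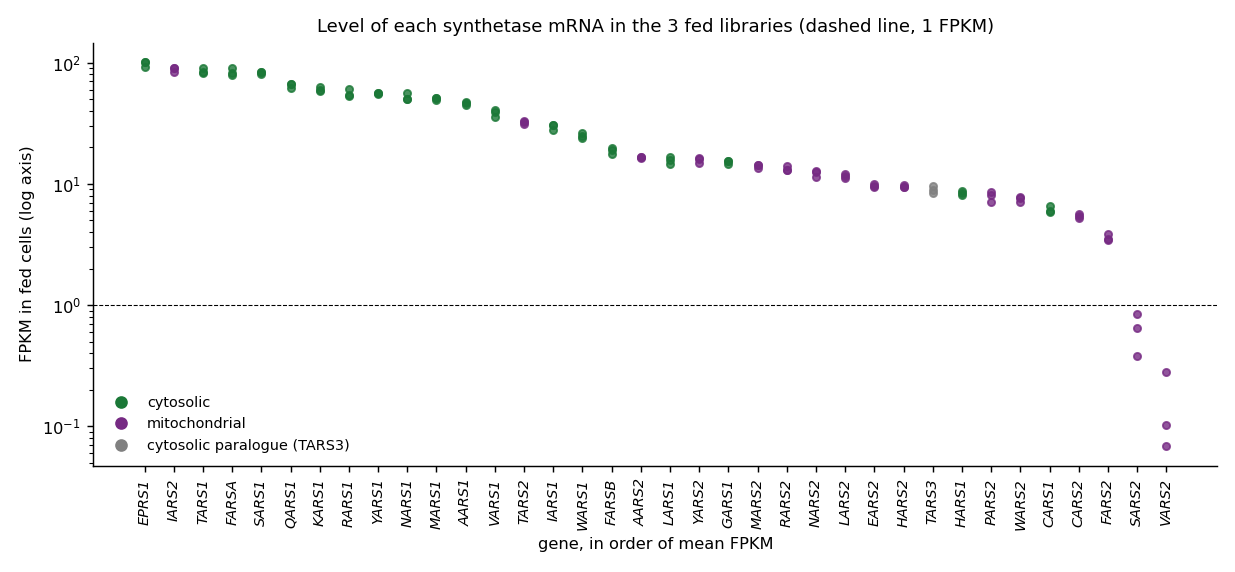
FPKM on a log axis for 36 synthetase genes in the 3 fed libraries (points), in order of the mean. Cytosolic genes fill most of the upper ranks, IARS2 is the exception near the top, and SARS2 and VARS2 lie under the dashed line at 1 FPKM.

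The comparison of starved with fed cells asked what 12 h without serum did to these mRNAs. Synthetase mRNAs moved in both directions: TARS2 fell most, AARS1, VARS1, MARS1 and AARS2 fell, and EARS2, MARS2, TARS1, PARS2 and CARS1 rose. Of 36 members tested, 16 passed limma, a linear model over all genes on the log2(FPKM + 1) scale, at an adjusted p under 0.05 (44.4%), against 41.1% of all genes tested, so the share called was near the background. Higher calls were 5 members (15.1% of all genes) and lower calls 11 (26.0% of all genes). This balance depended on the scaling. With the deposited size factors kept, 7 further members were called higher and 2 of the lower calls were lost, as described below. Cytosolic members gave 2 higher and 5 lower of 20, with a median log2 fold change of 0.09. Mitochondrial members gave 3 higher and 6 lower of 15, with a median of -0.07 that became 0.01 with the deposited size factors kept. The median over all genes was -0.05. Fed and starved FPKM were apart, with no overlap of libraries, for 22 of the 36 tested members (57.3% of all genes tested), 10 higher (22.6% of all genes) and 12 lower (34.8% of all genes).

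TARS2 (ENSG00000143374, chromosome 1, 150487364 to 150507609, GRCh38), the mitochondrial threonyl-tRNA synthetase, stood at 32.7, 31.4 and 32.8 FPKM in the fed libraries, 9.83, 11.1 and 9.95 in the starved libraries and 28.2, 32.9 and 26.4 in the knockdown libraries. All starved libraries lay far below all others. Its log2 fold change in starved against fed cells was -1.56 ± 0.09 (SE, n = 3 each; limma adjusted p = 2.22e-06), the largest fall among the members. TARS1 (chromosome 5, 33440696 to 33468091), which charges threonine in the cytosol, moved the other way, with 89.8, 84.4 and 82.3 FPKM in the fed libraries, 126, 111 and 132 in the starved libraries and 74.7, 66.8 and 89.6 in the knockdown libraries. Every starved library lay above every other library (0.52 ± 0.12, limma adjusted p = 0.00502). TARS3 (chromosome 15, 101653596 to 101724473), the paralogue of TARS1, was lower in level, at 9.70, 8.97 and 8.41 FPKM in the fed libraries, 11.4, 10.6 and 12.3 in the starved libraries and 7.26, 5.84 and 9.48 in the knockdown libraries. Its starved libraries were the highest, but the difference from fed cells did not pass (0.31 ± 0.14, limma adjusted p = 0.102).

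Among the cytosolic members the largest fall was in AARS1 (ENSG00000090861, chromosome 16, 70251983 to 70289707), the alanyl-tRNA synthetase, which stood at 44.9, 47.1 and 46.9 FPKM in the fed libraries, 21.02, 22.9 and 23.4 in the starved libraries and 49.7, 52.4 and 47.8 in the knockdown libraries. The starved libraries were at about the same low level and did not overlap either other group (-1.01 ± 0.08, limma adjusted p = 7.81e-06). VARS1 (chromosome 6, 31777518 to 31795752), for valine, stood at 35.6, 39.1 and 40.5 FPKM in the fed libraries, 21.7, 24.3 and 22.4 in the starved libraries and 34.0, 37.6 and 29.0 in the knockdown libraries, again lowest in all starved libraries (-0.73 ± 0.10, limma adjusted p = 0.000345). MARS1 (chromosome 12, 57475445 to 57517569), which charges both initiator and elongator methionine tRNAs, had 50.8, 51.1 and 49.5 FPKM in the fed libraries, 28.2, 31.9 and 30.3 in the starved libraries and 47.9, 50.2 and 56.4 in the knockdown libraries. It too was lowest in every starved library (-0.73 ± 0.09, limma adjusted p = 0.000111). MARS1 overlaps ARHGAP9 by 13370 bases and DDIT3 by 982 bases, both on the opposite strand. Whether the counting used strand is not given in the sources used here.

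FARSB (chromosome 2, 222566899 to 222656092), the beta subunit of cytosolic phenylalanyl-tRNA synthetase, stood at 19.6, 18.9 and 17.7 FPKM in the fed libraries, 13.3, 13.3 and 15.3 in the starved libraries and 20.99, 19.3 and 24.1 in the knockdown libraries. Its starved libraries were the lowest (-0.40 ± 0.10, limma adjusted p = 0.00816; edgeR on 8 libraries gave -0.32 and adjusted p = 0.0602), whereas FARSA, the alpha subunit, had a value of 0.21 ± 0.11 that did not pass (limma adjusted p = 0.148). YARS1 (chromosome 1, 32775237 to 32817380), for tyrosine, had 54.9, 56.6 and 55.7 FPKM in the fed libraries, 44.3, 49.3 and 46.6 in the starved libraries and 46.4, 49.2 and 48.8 in the knockdown libraries, and its starved libraries lay below the fed ones (-0.25 ± 0.07, limma adjusted p = 0.0213). That call did not hold without any 1 of the 3 fed libraries or without starved replicate 1 or 3 (limma adjusted p = 0.0562 to 0.0792), nor with the deposited size factors kept (-0.16, limma adjusted p = 0.161). CARS1, for cysteine, was higher by 0.25 ± 0.09 (limma adjusted p = 0.04). Its call was lost without any 1 fed library, starved replicate 2 or 3 or knockdown replicate 2 (limma adjusted p = 0.0505 to 0.132).

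The remaining 13 cytosolic members did not pass, with log2 fold changes between -0.19 and 0.21. They include EPRS1, NARS1 and QARS1, described below, and FARSA, GARS1, HARS1, IARS1, KARS1, LARS1, RARS1, SARS1 and WARS1. With the deposited size factors kept in place of scaling to a fixed library sum, 21 members passed: IARS1, KARS1, LARS1, SARS1, RARS2 and TARS3 were among those then also higher (0.22 to 0.39), and YARS1 and LARS2 were no longer called. Under that scaling 50.3% of all called genes were higher, against 36.8% under the scaling used here.

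The mitochondrial members that rose were led by EARS2 (chromosome 16, 23520754 to 23557731), the glutamyl-tRNA synthetase that also feeds glutaminyl-tRNA synthesis, at 9.37, 9.55 and 9.94 FPKM in the fed libraries, 16.9, 19.0 and 18.1 in the starved libraries and 9.31, 9.496 and 10.1 in the knockdown libraries. All starved libraries were well above the rest (0.84 ± 0.08, limma adjusted p = 2.25e-05). MARS2 (chromosome 2, 197705369 to 197708395), for methionine, stood at 14.2, 14.3 and 13.4 FPKM in the fed libraries, 22.3, 23.6 and 28.3 in the starved libraries and 13.7, 13.4 and 10.2 in the knockdown libraries. It was also highest in every starved library (0.77 ± 0.12, limma adjusted p = 0.000621). PARS2 (chromosome 1, 54756898 to 54764523), for proline, had 8.10, 8.51 and 7.06 FPKM in the fed libraries, 8.81, 12.7 and 10.8 in the starved libraries and 11.5, 10.6 and 10.97 in the knockdown libraries. Starved and knockdown libraries both lay above fed ones (0.40 ± 0.12, limma adjusted p = 0.0233), and the call was lost without fed replicate 1 or 3 or starved replicate 2 or 3 (limma adjusted p = 0.0533 to 0.0928).

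Other mitochondrial members that fell included AARS2, HARS2, FARS2 and LARS2. AARS2 (chromosome 6, 44298731 to 44313347), for alanine, stood at 16.3, 16.7 and 16.6 FPKM in the fed libraries, 8.66, 10.6 and 11.1 in the starved libraries and 18.9, 18.0 and 15.05 in the knockdown libraries. Its starved libraries were the lowest (-0.66 ± 0.11, limma adjusted p = 0.000796), as were those of its cytosolic counterpart AARS1.

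HARS2 (chromosome 5, 140691430 to 140699305) shares its promoter window, printed above, with HARS1 (chromosome 5, 140673035 to 140691537). HARS2 stood at 9.85, 9.502 and 9.46 FPKM in the fed libraries, 7.27, 6.70 and 6.79 in the starved libraries and 8.97, 8.14 and 7.95 in the knockdown libraries and was lowest in the starved libraries (-0.42 ± 0.08, limma adjusted p = 0.00166). HARS1 stood at 8.80, 8.41 and 8.15 FPKM in the fed libraries, 8.65, 8.75 and 9.53 in the starved libraries and 8.50, 8.15 and 8.35 in the knockdown libraries, and its groups were close together (0.08 ± 0.07, limma adjusted p = 0.449). The genes overlap by 108 bases on opposite strands, a small part of the 3719 and 14155 bases counted. HARS2 also shares 626 bases on its own strand with ZMAT2. HARS1 shares 542 bases on its own strand with DND1 and 1090 bases on the opposite strand with WDR55. The part of these overlaps in the values was not tested.

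FARS2 was at 3.53, 3.42 and 3.83 FPKM in fed and 2.18, 3.03 and 2.39 in starved libraries (-0.38 ± 0.10, limma adjusted p = 0.0123). Its call was lost without fed replicate 3 or starved replicate 1 (limma adjusted p = 0.0509 and 0.0526) and with edgeR (adjusted p = 0.136). LARS2, for leucine, was at 11.1, 12.1 and 11.6 and 7.84, 9.81 and 9.64 FPKM (-0.33 ± 0.09, limma adjusted p = 0.0174). It lost its call without fed replicate 2 or 3 or starved replicate 1 (limma adjusted p = 0.0529 to 0.0683), with the size factors kept (0.0770) and with edgeR (adjusted p = 0.168). CARS2, IARS2, NARS2, RARS2, WARS2 and YARS2 did not pass and had values between -0.19 and 0.20.

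**Figure D2:**
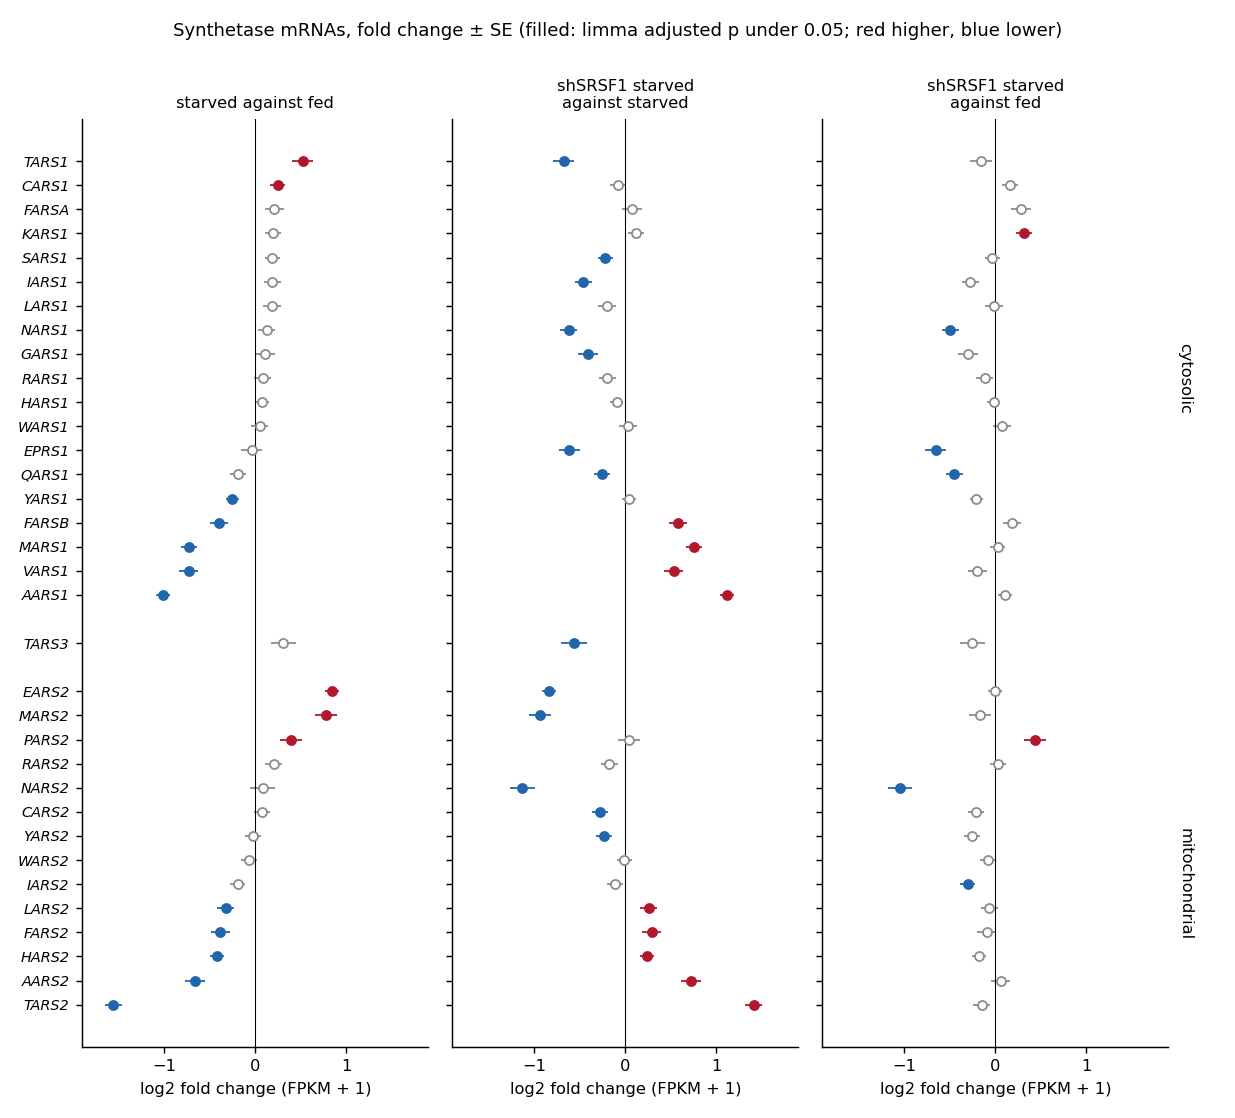
Log2 fold change with its SE for 34 tested synthetase genes in the 3 comparisons, which share libraries. Filled points passed limma at an adjusted p under 0.05 (red higher, blue lower), with TARS2 lowest on starvation and highest in knockdown against starved cells.

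**Figure D3:**
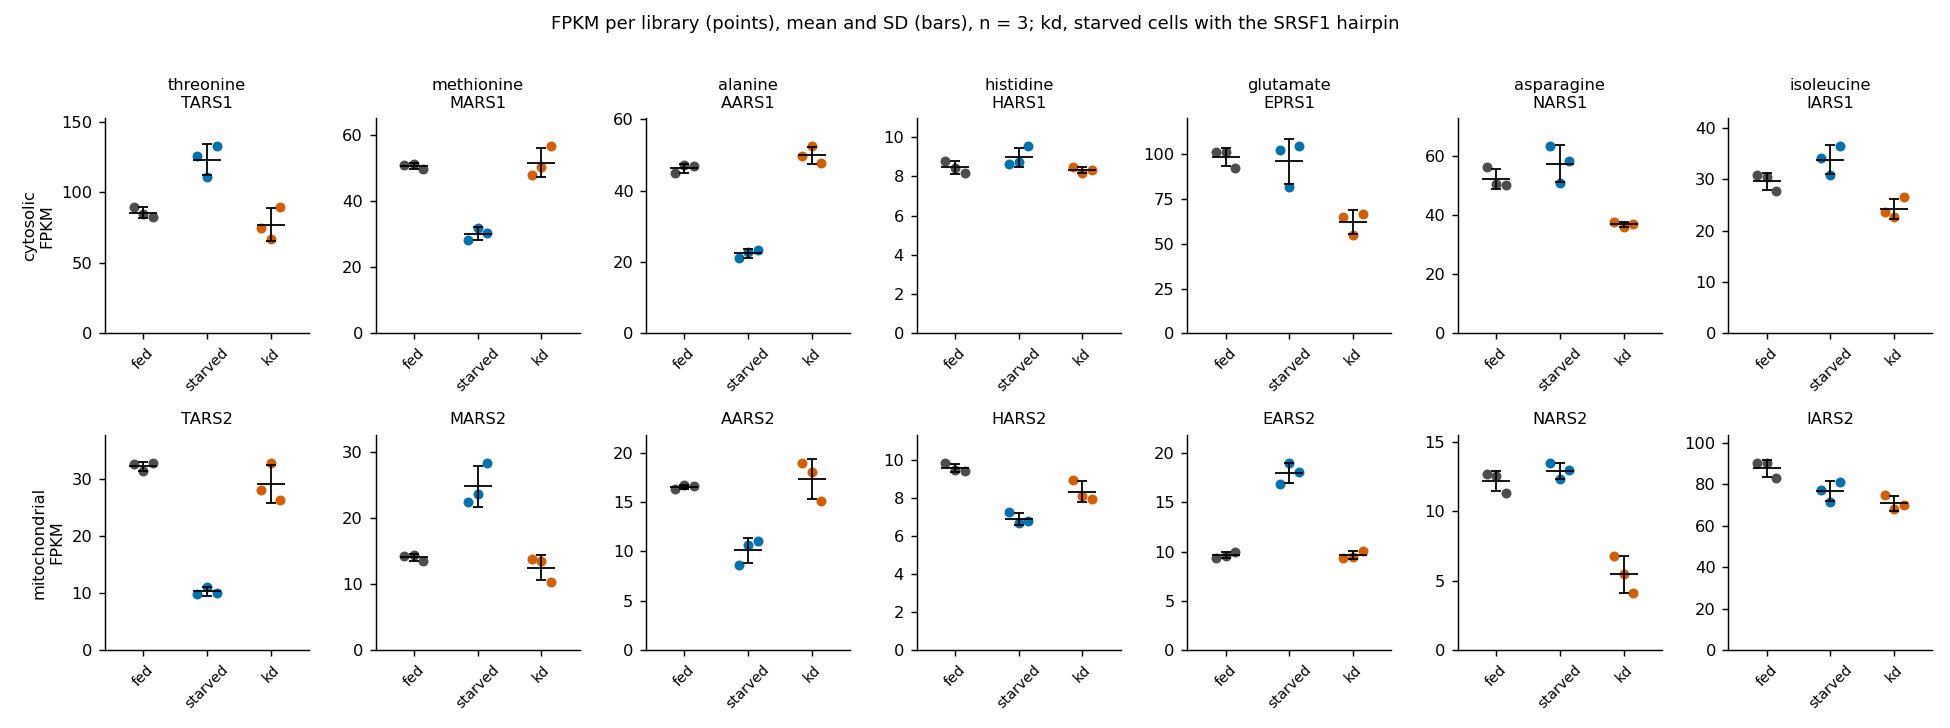
FPKM in each library (points) with mean and SD (bars, n = 3) for 7 cytosolic genes in the upper row and the mitochondrial gene for the same amino acid in the lower row. TARS1 and TARS2, and MARS1 and MARS2, moved in opposite directions on starvation, while AARS1 and AARS2 both fell.

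Knockdown cells were set against starved cells, both without serum, to ask how these mRNAs differ when the SRSF1 hairpin is present. TARS2, AARS1, MARS1 and AARS2 were higher in knockdown cells, and NARS2, MARS2, EARS2, TARS1, NARS1, EPRS1 and TARS3 were lower. Of 36 members 23 passed limma (63.9%), against 44.5% of all genes tested. With the fed libraries left out of the fit, 7 of these calls were lost: CARS2, FARS2, HARS2, LARS2, QARS1, SARS1 and YARS2 (limma adjusted p = 0.0678 to 0.124). Over all genes that fit called 2353 higher and 1593 lower, in place of 2880 and 2077. Higher calls numbered 10 (25.9% of all genes) and lower calls 13 (18.7% of all genes). By compartment, 4 cytosolic members were higher and 7 lower, 6 mitochondrial members were higher and 5 lower, and TARS3 was lower. Median log2 fold changes were -0.09 for cytosolic members and -0.01 for mitochondrial members, beside 0.02 over all genes, and without starved replicate 3 the mitochondrial median was 0.03. Groups did not overlap for 24 of 36 tested members (49.8% of all genes tested), 10 higher (29.0% of all genes) and 14 lower (20.8% of all genes).

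The starved libraries enter this comparison and the first one, so values of the 2 comparisons are not independent and are only set side by side. TARS2 was higher in knockdown than in starved cells by 1.41 ± 0.09 (limma adjusted p = 3.34e-06), after a value of -1.56 on starvation. AARS1 was higher by 1.12 ± 0.08 (limma adjusted p = 3.86e-06), beside -1.01 on starvation. In both genes all knockdown libraries lay above all starved libraries. MARS1 was higher by 0.75 ± 0.09, AARS2 by 0.72 ± 0.11, FARSB by 0.58 ± 0.10 and VARS1 by 0.53 ± 0.10 (limma adjusted p = 8.49e-05 to 0.00214). In all 6 genes the knockdown and starved libraries did not overlap.

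Smaller rises were called for FARS2 (0.29 ± 0.10), LARS2 (0.26 ± 0.09) and HARS2 (0.24 ± 0.08), with limma adjusted p = 0.0411, 0.0433 and 0.0289. The FARS2 and LARS2 calls were each lost without any 1 fed library, starved replicate 1 or 3 or knockdown replicate 1 or 2 (limma adjusted p = 0.0547 to 0.152 and 0.0555 to 0.163). HARS2 lost its call without starved replicate 2 or 3 or knockdown replicate 1 (limma adjusted p = 0.0617 to 0.106). All 3 calls were also lost with edgeR and with the deposited size factors kept.

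The lower members were led by NARS2 (chromosome 11, 78435968 to 78574874), the mitochondrial asparaginyl-tRNA synthetase, which stood at 12.7, 12.5 and 11.3 FPKM in the fed libraries, 13.5, 12.3 and 13.0 in the starved libraries and 6.75, 5.49 and 4.12 in the knockdown libraries. Fed and starved libraries overlapped and every knockdown library was far below them, with knockdown replicate 3 the lowest (-1.13 ± 0.13, limma adjusted p = 0.000103). NARS1 (chromosome 18, 57600656 to 57622213), its cytosolic counterpart, had 56.2, 50.6 and 50.1 FPKM in the fed libraries, 63.1, 50.7 and 58.3 in the starved libraries and 37.6, 35.8 and 37.0 in the knockdown libraries, with the knockdown libraries together below the other groups (-0.62 ± 0.09, limma adjusted p = 0.000504). EPRS1 (ENSG00000136628, chromosome 1, 219968600 to 220046530) stood at 101, 102 and 92.6 FPKM in the fed libraries, 102, 81.8 and 104 in the starved libraries and 65.3, 54.7 and 66.8 in the knockdown libraries. It was lowest in all knockdown libraries (-0.62 ± 0.12, limma adjusted p = 0.00183) and did not pass between starved and fed cells (-0.04 ± 0.12).

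MARS2 and EARS2, higher on starvation, had log2 fold changes of -0.94 ± 0.12 and -0.84 ± 0.08 in the knockdown (limma adjusted p = 0.000177 and 2.05e-05). TARS1 was at -0.68 ± 0.12 (limma adjusted p = 0.00104) and TARS3 at -0.56 ± 0.14 (limma adjusted p = 0.00801). The threonine enzymes of the cytosol were therefore both lower while mitochondrial TARS2 was higher. IARS1, for isoleucine, had a log2 fold change of -0.46 ± 0.09 and GARS1, for glycine, one of -0.41 ± 0.11 (limma adjusted p = 0.00253 and 0.0107). GARS1 stood at 16.7, 15.95 and 16.7 FPKM in starved and 10.6, 11.5 and 14.7 in knockdown libraries, with knockdown replicate 3 nearest the starved level.

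QARS1 (chromosome 3, 49095932 to 49105130), for glutamine, stood at 61.4, 66.9 and 67.2 FPKM in the fed libraries, 52.7, 62.1 and 56.2 in the starved libraries and 45.5, 51.2 and 45.7 in the knockdown libraries, lowest in the knockdown libraries (-0.26 ± 0.09, limma adjusted p = 0.0405). That call was lost without any 1 fed library, starved replicate 2 or 3 or knockdown replicate 1 or 3 (limma adjusted p = 0.0554 to 0.117). CARS2 had a value of -0.28 ± 0.09 (limma adjusted p = 0.0242), lost without starved replicate 2 or 3 or knockdown replicate 1 (0.0541 to 0.0696). YARS2 had -0.23 ± 0.09 (limma adjusted p = 0.0482), lost without any 1 fed library, starved replicate 1 or 3 or knockdown replicate 1 (0.0643 to 0.162). SARS1 had -0.22 ± 0.08 (limma adjusted p = 0.0494), lost without any 1 fed library, starved replicate 2 or 3 or knockdown replicate 1 or 2 (0.0757 to 0.137). YARS2 shares 18161 bases with DNM1L on the opposite strand. The 9 cytosolic and 4 mitochondrial members that did not pass lay between -0.20 and 0.12.

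Knockdown cells were last set against fed cells, which differ in both serum and the hairpin. The members that stood apart from fed cells were NARS2, EPRS1, NARS1, QARS1 and IARS2, which were lower, and PARS2 and KARS1, which were higher. This is 7 of 36 members (19.4%), near the 18.2% of all genes called, with 2 higher (8.43% of all genes) and 5 lower (9.75% of all genes). The median log2 fold change was -0.03 for cytosolic and -0.15 for mitochondrial members, beside -0.03 over all genes. Groups did not overlap for 15 of 36 tested members (40.8% of all genes tested), 5 higher (18.0% of all genes) and 10 lower (22.8% of all genes).

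NARS2 differed most from fed cells (-1.05 ± 0.13, limma adjusted p = 0.000819), followed by EPRS1 (-0.66 ± 0.12, limma adjusted p = 0.00478), NARS1 (-0.49 ± 0.09, 0.00698) and QARS1 (-0.45 ± 0.09, 0.00877). In these 4 genes every knockdown library lay below every fed library, and the calls held without each library in turn. IARS2 (chromosome 1, 220094132 to 220148041) stood at 90.2, 90.1 and 83.1 FPKM in the fed libraries, 77.4, 71.5 and 81.4 in the starved libraries and 74.9, 68.0 and 70.0 in the knockdown libraries, with knockdown libraries below fed ones (-0.30 ± 0.08, limma adjusted p = 0.0338). PARS2 was higher by 0.44 ± 0.12 (limma adjusted p = 0.0327). KARS1 (chromosome 16, 75627474 to 75648643), whose protein charges lysine in both compartments, had 58.3, 59.9 and 62.5 FPKM in the fed libraries, 62.3, 74.7 and 71.2 in the starved libraries and 73.6, 74.1 and 77.8 in the knockdown libraries, so the knockdown libraries were above the fed ones (0.31 ± 0.09, limma adjusted p = 0.0329).

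The calls of IARS2, PARS2 and KARS1 each failed without any 1 fed library or knockdown replicate 2. PARS2 and KARS1 also failed without knockdown replicate 1, and KARS1 without starved replicate 3 (limma adjusted p = 0.0624 to 0.127, 0.0545 to 0.112 and 0.0509 to 0.126 for IARS2, PARS2 and KARS1). Without any 1 fed library or knockdown replicate 2 the count was 4, and without knockdown replicate 3 it was 12. FARSA, GARS1, IARS1 and TARS3 were among those that passed in the latter case (limma adjusted p = 0.0381, 0.00330, 0.0222 and 0.0227). Knockdown replicate 3 also had the highest share of mitochondrially encoded RNA (5.56%), whose part in these calls was not tested.

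Most members that moved on starvation did not pass in knockdown against fed cells. Not passing does not show equal levels. EARS2 stood at 9.62 ± 0.395 FPKM in knockdown and 9.62 ± 0.287 in fed cells (SD, n = 3), and its difference did not pass (limma adjusted p = 0.999). TARS2 stood at 29.2 ± 3.34 against 32.3 ± 0.772 FPKM (-0.15 ± 0.09, limma adjusted p = 0.282), AARS1 at 49.96 ± 2.34 against 46.3 ± 1.20 (0.11 ± 0.08, 0.349) and MARS1 at 51.5 ± 4.41 against 50.5 ± 0.843 (0.03 ± 0.09, 0.865). FARSA, HARS1, LARS1, RARS1, WARS1, RARS2 and WARS2 were among 8 members that passed in none of the 3 comparisons, with values from -0.20 to 0.28.

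The balance between compartments differed by amino acid. For 16 pairs of a cytosolic and a mitochondrial gene, both tested, the ratio of their FPKM was taken in each library, which removes any scaling common to the library. Fed and starved ratios did not overlap for 12 pairs, 7 with a higher and 5 with a lower ratio on starvation. Knockdown and starved ratios did not overlap for 12 pairs (5 higher and 7 lower in the knockdown), and knockdown and fed ratios for 8 (6 higher and 2 lower). Ratios are described here with no test, and no share over other pairs of genes was computed. Of all single genes tested, 57.3%, 49.8% and 40.8% did not overlap in these comparisons in the same order. The counts of pairs are therefore not read as particular to the synthetases. EPRS1 stands in the glutamate and the proline pair and FARS2 in 2 phenylalanine pairs, so the pairs are not independent.

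The threonine ratio TARS1/TARS2 was 2.65 ± 0.126 in fed, 12.0 ± 1.80 in starved and 2.69 ± 0.682 in knockdown cells (SD, n = 3). It moved most among the pairs, with its genes moving in opposite directions. The methionine ratio MARS1/MARS2 went the other way, from 3.61 ± 0.0748 in fed to 1.23 ± 0.143 in starved cells, and was 4.24 ± 1.10 in knockdown cells. The glutamate ratio EPRS1/EARS2 was 10.2 ± 0.803, 5.38 ± 0.934 and 6.47 ± 0.643 in the same order. Its knockdown libraries overlapped the starved ones and lay below the fed ones.

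The histidine ratio HARS1/HARS2 was higher in starved cells, where HARS2 was lower and HARS1 did not pass, going from 0.880 ± 0.0164 to 1.30 ± 0.106. The isoleucine ratio IARS1/IARS2 stayed under 1 in every library, at 0.337 ± 0.00409 in fed and 0.440 ± 0.00789 in starved cells. That side of 1 rests on the gene lengths used, 22418 bases for IARS1 and 4135 for IARS2. In normalized counts IARS1 was the higher, with means of 8750 against 4792 in fed cells. For every pair the lengths set the level of the ratio, but not its change between groups. The asparagine ratio NARS1/NARS2 differed in knockdown cells, at 7.03 ± 1.76 against 4.30 ± 0.221 in fed and 4.43 ± 0.289 in starved cells, although both genes were lower there. The proline ratio EPRS1/PARS2 was lower in the order fed (12.5 ± 0.596), starved (9.23 ± 2.62) and knockdown cells (5.65 ± 0.456). Phenylalanine has 1 ratio for each cytosolic subunit. FARSA/FARS2 was 23.5 ± 0.742, 38.9 ± 2.92 and 31.2 ± 1.69 in the same order. FARSB/FARS2 was 5.24 ± 0.537, 5.63 ± 1.09 and 6.55 ± 1.09, and its libraries overlapped in every comparison. The alanine ratio AARS1/AARS2, whose genes both fell on starvation, was 2.80 ± 0.0387, 2.23 ± 0.170 and 2.90 ± 0.274.

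**Figure D4:**
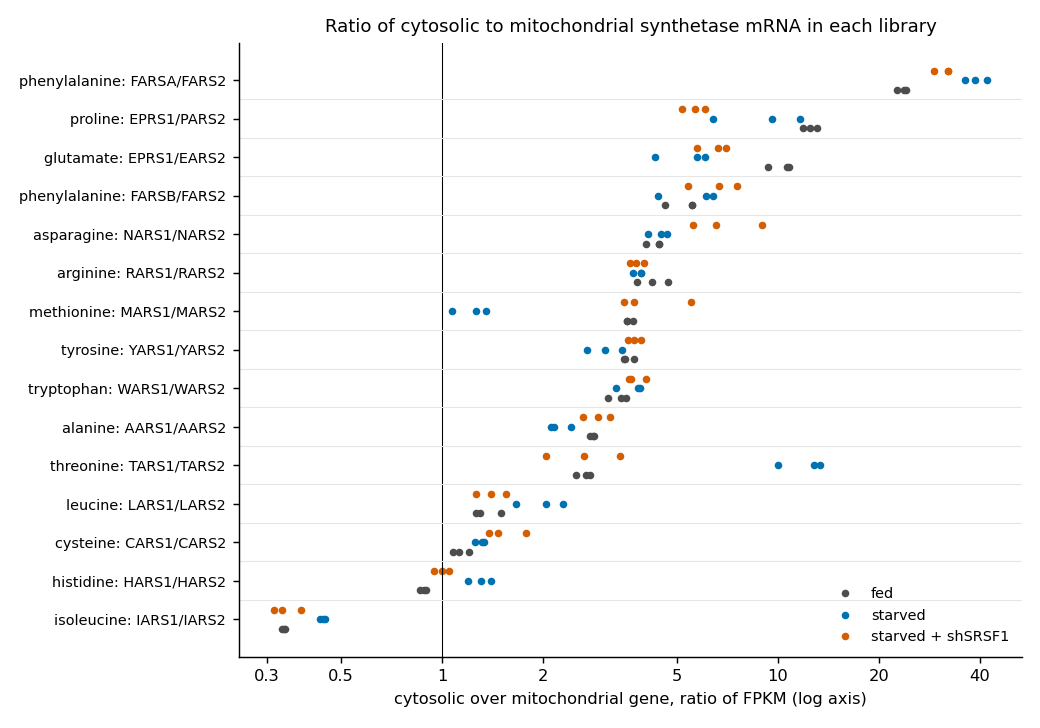
Ratio of cytosolic to mitochondrial FPKM for the same amino acid in each library (points, log axis) for 15 pairs ordered by their mean in fed cells. The starved libraries stand apart to the right for threonine and to the left for methionine, and the knockdown libraries lie near the fed ones in both.

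Summed over the 20 cytosolic members, FPKM was 916 to 921 in fed, 914 to 953 in starved and 842 to 888 in knockdown libraries. Starved libraries overlapped the fed ones and knockdown libraries were below both. Over the 17 mitochondrial members the sum was 273 to 283 in fed, 240 to 257 in starved and 240 to 247 in knockdown libraries, so fed libraries were the highest. The ratio of the sums was 3.29 ± 0.06 in fed, 3.77 ± 0.05 in starved and 3.52 ± 0.15 in knockdown cells (SD, n = 3). IARS2 makes up a large part of the mitochondrial sum.

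By structural class, class II mitochondrial enzymes held most of the mitochondrial falls. Of all genes tested, 15.1% were higher and 26.0% lower on starvation, and 25.9% and 18.7% in knockdown against starved cells. On starvation 5 of 7 tested class II mitochondrial members were lower, TARS2, AARS2, HARS2 and FARS2 among them, and PARS2 was higher, with a median of -0.42, whereas 1 of 8 class I mitochondrial members was lower and 2 were higher, with a median of 0.02. Cytosolic class I members gave 1 higher and 3 lower of 10, and class II members 1 higher and 2 lower of 11, EPRS1 counting in both. In knockdown against starved cells the class II mitochondrial members gave 5 higher and 1 lower of 7, the class I ones 1 higher and 4 lower of 8. With the deposited size factors kept, cytosolic class I gave 3 higher and 2 lower and class II 4 higher and 2 lower on starvation, mitochondrial class I 3 higher and 0 lower, and mitochondrial class II 1 higher and 5 lower. In knockdown against starved cells the mitochondrial classes then gave 0 higher and 5 lower, and 3 higher and 1 lower. Whether the classes differ was not tested.

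Of 8 members that belong to the multi-synthetase complex, MARS1 was the only one called on starvation (12.5%, against 41.1% of all genes). In knockdown against starved cells 1 was higher and 3 lower (50% called, against 44.5% of all genes). Among the 12 cytosolic members outside the complex, 2 were higher and 4 lower on starvation (50% called). In the knockdown 3 of these were higher and 4 lower (58.3% called). Over all genes 15.1% were higher and 26.0% lower on starvation, and 25.9% and 18.7% in knockdown against starved cells. Whether members inside and outside the complex differ was not tested. With the deposited size factors kept, complex members gave 4 higher, IARS1, KARS1 and LARS1 among them, and 1 lower on starvation, and 1 higher and 5 lower in the knockdown, and the members outside it 3 higher and 3 lower on starvation. The scaffold gene AIMP1 was at 10.96, 9.66 and 9.90 FPKM in fed, 6.64, 5.10 and 6.52 in starved and 8.61, 7.60 and 7.68 in knockdown libraries. It was lowest in the starved libraries (-0.66 ± 0.10, limma adjusted p = 0.000671) and higher in knockdown than in starved cells (0.34 ± 0.10, limma adjusted p = 0.0216). AIMP2 had values of -0.06 ± 0.11 and 0.14 ± 0.11 that did not pass. EEF1E1, the scaffold AIMP3, did not pass on starvation (0.41 ± 0.22) and was lower in the knockdown (-0.75 ± 0.22, limma adjusted p = 0.0198), with knockdown replicate 3 the lowest of 5.00, 4.91 and 2.30 FPKM.

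Of the 12 cytosolic synthetase genes described in mammalian cells as ATF4 targets, 2 were higher (TARS1 and CARS1) and 3 lower (AARS1, MARS1 and YARS1) on starvation. In knockdown against starved cells 2 were higher (AARS1 and MARS1) and 6 lower (TARS1, NARS1, EPRS1, IARS1, GARS1 and SARS1). The 8 other cytosolic members gave 0 higher and 2 lower on starvation (VARS1 and FARSB), and 2 higher and 1 lower in the knockdown. On starvation 41.7% of the 12 and 25% of the 8 were called, against 41.1% of all genes (15.1% higher and 26.0% lower). In the knockdown 66.7% and 37.5% were called, against 44.5% of all genes (25.9% higher and 18.7% lower). Whether these sets, or those by promoter word below, differ was not tested. With the deposited size factors kept, the balance on starvation turned to 5 higher and 2 lower of the 12, since IARS1, LARS1 and SARS1 were then called and YARS1 was not, and to 2 higher and 2 lower of the other 8. Cytosolic genes with the promoter word printed above gave 2 higher and 2 lower of 7 on starvation and 2 higher and 4 lower of 7 in the knockdown. Those with a window and no word gave 0 higher and 1 lower of 9, and 1 higher and 3 lower of 9. On starvation these became 3 higher and 2 lower, and 2 higher and 1 lower, with the size factors kept. AARS1, MARS1 and TARS1 all hold TGATGCAA, and the first 2 fell where the last rose.

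Among other genes of the amino acid response, 16 of 32 tested rose on starvation (15.1% of all genes) and 3 fell (26.0% of all genes), with a median of 0.26 beside -0.05 over all genes. SLC7A11, the cystine transporter subunit, stood at 9.24, 9.24 and 7.49 FPKM in fed and 28.0, 16.3 and 23.9 in starved libraries (1.27 ± 0.17). CTH, which makes cysteine from cystathionine, was at 1.17 ± 0.08, the transcription factor gene DDIT3 at 1.10 ± 0.22 and the mTORC1 inhibitor gene DDIT4 at -0.97 ± 0.24 (limma adjusted p = 4.08e-06 to 0.00773). ATF4 mRNA itself did not pass (-0.09 ± 0.11, limma adjusted p = 0.555), nor did ASNS (0.17 ± 0.10).

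In knockdown against starved cells 4 of these 32 genes were higher (25.9% of all genes) and 21 lower (18.7% of all genes), with a median of -0.49. SLC7A11 was at -2.55 ± 0.17, the glutathione-degrading enzyme gene CHAC1 at -1.78 ± 0.17, the glycine transporter gene SLC6A9 at -1.33 ± 0.14 and the stress transcription factor gene ATF3 at 2.02 ± 0.12 (limma adjusted p = 1.88e-06 to 5.62e-05). Against fed cells 2 were higher (8.43% of all genes) and 10 lower (9.75% of all genes), with ATF3 at 1.94 ± 0.12, CHAC1 at -1.53 ± 0.17, SLC7A11 at -1.28 ± 0.17 and PSAT1 at -0.76 ± 0.09.

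Genes that handle cytosolic tRNA gave 3 higher and 3 lower of 18 on starvation (33.3% called, against 41.1% of all genes), and 4 higher and 5 lower in the knockdown against starved cells (50% called, against 44.5% of all genes), shares near those of all genes. EEF1D, a subunit of the exchange factor for the elongation factor that carries charged tRNA, was at 8.36, 9.03 and 8.67 FPKM in fed and 18.8, 17.1 and 17.5 in starved libraries (0.96 ± 0.18), and its value in the knockdown was -1.03 ± 0.18. TRMT1, a tRNA methyltransferase, had 0.86 ± 0.11 and -0.68 ± 0.11, EEF1A2, a tissue-restricted elongation factor, -0.43 ± 0.11 and 0.49 ± 0.11. SEPSECS, the final enzyme of selenocysteinyl-tRNA synthesis, had -0.76 ± 0.12 on starvation, and ELP3, of the Elongator complex, 0.57 ± 0.10 in the knockdown. Limma adjusted p for these calls was 0.000245 to 0.0117. Against fed cells ELP3 was the only one called (0.35 ± 0.10, limma adjusted p = 0.0423).

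Mitochondrial charging and translation factors gave 7 higher and 4 lower of 18 on starvation (61.1% called, against 41.1% of all genes), and 1 higher and 5 lower in the knockdown against starved cells (33.3% called, against 44.5% of all genes). MRPL58, a peptidyl-tRNA hydrolase of the mitochondrial ribosome, stood at 42.4, 38.9 and 45.7 FPKM in fed, 15.8, 19.3 and 16.2 in starved and 54.0, 58.8 and 43.1 in knockdown libraries. The starved libraries were well below all others (-1.26 ± 0.12 on starvation and 1.54 ± 0.12 in the knockdown), the same order of groups as for TARS2. MTRF1, a mitochondrial release factor, had the reverse order (0.998 ± 0.14 and -1.002 ± 0.14). TRMU, which thiolates mitochondrial tRNAs, had 0.61 ± 0.10 and -0.43 ± 0.10, and the initiation factor gene MTIF2 -0.53 ± 0.14 on starvation. C12orf65, a ribosome rescue factor, had -0.38 ± 0.08 in the knockdown. Limma adjusted p for these calls was 1.01e-05 to 0.01. QRSL1 and GATB, subunits of the amidotransferase that works after EARS2, were higher on starvation as EARS2 was (0.32 ± 0.10 and 0.30 ± 0.10, limma adjusted p = 0.0264 and 0.029), and GATC, the other subunit, did not pass (0.10 ± 0.09, limma adjusted p = 0.4). Against fed cells MTRF1L, a release factor paralogue, was the only one called (0.47 ± 0.09, limma adjusted p = 0.00629).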

How the data were processed

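RNA was sequenced from mRNA libraries of 293T cells, grouped by the sample labels. The authors deposited 1 table, whose name calls its values FPKM. The deposited signal values are whole read counts divided by 1 size factor per library: 100% of them were whole multiples of 1 step in each of the 9 libraries (relative tolerance 1e-08). Planning had assumed FPKM. Reads were recovered for 8 libraries, all but starved replicate 1. The submitters' processing notes name mm10, but all 38 members lay at overlapping GRCh38 positions in GENCODE 29; aligner and counter are not given in the sources used here.

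FPKM was computed from these values, the table's gene lengths and each library's sum. Genes reaching 1 FPKM in 3 or more libraries were kept (11133 of 19966; 8833 left out). Limma (3.58.1, R 4.3.3) with trend compared log2(FPKM + 1), so low genes' fold changes are understated, in 1 fit of 3 group means over 9 libraries, two-sided, with p-values adjusted by Benjamini-Hochberg over every gene kept and a threshold of 0.05. The test was also run on simulated counts, drawn independently for each library with few genes changed. That simulation cannot speak to the choice of scaling or to libraries that deviate together. EdgeR 4.0.16 ran on the recovered reads. Python 3.11.15, pandas 2.3.3 and matplotlib 3.10.9 made the summaries. Of the 38 members, 2 enter the counts, medians and sums but are not reported here individually.

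Members and lists were chosen with earlier results of these data known, so none is independent support. Values by library are given for the 6 members of each compartment with the largest called change in the first 2 comparisons, all members called against fed cells, the threonine and histidine genes and SRSF1. For other lists, up to 4 called genes with the largest change are named. FARSA, FARS2, LARS2, GARS1 and the other members, AIMP1, AIMP2, EEF1E1, ATF4, ASNS, QRSL1, GATB and GATC were named outside that rule after their values were seen. Nothing says that replicates are separate cultures, so the spread behind the p-values is that between these libraries and may be technical.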

Additional observations from a re-analysis of the deposited data

How the results depend on the processing

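The fit was repeated under 21 settings. Of 46 called member results, 30 passed in every setting and 0 changed sign in a setting that called them. Of 2265 member values, 2056 kept direction and side of the threshold, 119 lost and 37 gained a call, and 53 changed sign where neither value was called. With the deposited size factors, median ratio scaling and edgeR in that order, the cytosolic median log2 fold change on starvation was 0.18, 0.18 and 0.16, and in knockdown against starved cells -0.15, -0.15 and -0.20. The mitochondrial median on starvation was 0.0117 with the deposited size factors and 0.0074 with median ratio scaling. In knockdown against starved cells the mitochondrial median was -0.0772 with no filter, -0.0612 with a filter of 5 FPKM, -0.0698 with the size factors, -0.0672 with median ratio scaling, -0.0723 with TPM and -0.157 with edgeR. Against fed cells it was -0.10 with no filter, and the members called with TPM were 4 in place of 7. The cause of these moves was not tested. Among called genes, the share higher was 58.1% in knockdown against starved cells and 48.4% with the size factors kept. Leaving out each library in turn gave 11 to 18 members called on starvation, 16 to 24 in knockdown against starved and 4 to 12 against fed cells. The medians then ran from -0.125 to -0.0652 (cytosolic, knockdown against starved), from -0.086 to 0.0343 (mitochondrial, knockdown against starved) and from -0.166 to -0.0823 (mitochondrial, against fed). Same-numbered libraries had correlations of their deviations from -0.56 to 0.62, and differently numbered ones from -0.465 to 0.627, so the numbers were not taken as pairs. Starved replicate 2 deviated with fed replicate 3 (0.627) and knockdown replicate 2 (0.617), and the latter pair also with each other (0.523). What these libraries share was not tested. With a replicate block 16, 21 and 7 members were called in the 3 comparisons, and SARS1 and YARS2 were lost in the second (limma adjusted p = 0.0517 and 0.0689). EdgeR called 14, 19 and 7. FARS2, with the fewest reads among tested members, has the widest counting error, and SARS2 and VARS2 did not pass the filter.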
